A study of Homo sapiens with 3 samples.

Results

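The 9 genes described here make serine, pass its carbon to folate and build thymidylate and purines: PHGDH, PSAT1, SHMT1, SHMT2, MTHFD1, MTHFD2, TYMS, GART and PAICS. They were chosen by name. The probe sets taken for them were those that the platform's annotation lists under exactly 1 of these symbols, and these were 27 probe sets of 9 genes among 19775 genes on the array. RNA was measured in THP-1, an established human monocytic leukemia line that grows in suspension and becomes adherent and macrophage-like when given phorbol myristate acetate (PMA), an activator of protein kinase C. The 3 cultures were undifferentiated cells given no PMA and a pair given PMA, named PMA 3 days and PMA 8 days by their labels. The PMA 3 days culture was kept in 200 nM PMA for 24 h and then without PMA for 3 days. The PMA 8 days culture was kept in 200 nM PMA for 72 h and then without PMA for 5 days, so time in the drug, time since the drug and time in culture changed together. All came from 1 line grown in 10% serum. Medium with 2% serum was given 16 h before RNA was taken, and the labels leave unclear whether the undifferentiated cells also received it.

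Each condition had 1 array, so no test between conditions was possible, no p-value is given, and every ratio compares a pair of arrays. Signals are in MAS5 units and can be compared between arrays for the same probe set, not between probe sets or genes. Where 3 signals follow each other, the first is from undifferentiated cells, the next from PMA 3 days and the last from PMA 8 days. A gene was read from its brightest probe set. "Lower" or "higher at 2-fold" means a ratio of at least 2 between a pair of arrays. Signals below a floor of 149.8, the median of all values, were raised to it, and a ratio against the floor is written as "at least". The error given beside the ratios is how far probe sets of the same gene differ in their log2 ratio, called the probe-set SD. Over 5180 genes it was 0.43 for PMA 3 days against undifferentiated cells, 0.444 for PMA 8 days against undifferentiated cells and 0.265 between the PMA times. It covers neither differences between cultures nor differences between labelling reactions. In RNA from a whole culture, fewer cells of a type and less RNA per cell cannot be told apart.

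Serine is made from a glycolytic intermediate by PHGDH, PSAT1 and PSPH. The SHMT enzymes split serine into glycine and a single carbon that is carried on tetrahydrofolate, SHMT1 in the cytosol and SHMT2 in mitochondria. The MTHFD enzymes interconvert the carbon's oxidation states, MTHFD2 in mitochondria and MTHFD1 in the cytosol. TYMS uses that carbon to turn dUMP into dTMP for DNA synthesis, and the purine pathway, in which GART and PAICS carry several steps, uses it for the purine ring. Dividing cells draw heavily on these reactions, and TYMS and the purine enzyme GART are reached by antifolate drugs.

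All arrays had a trimmed mean signal of 1000, and between 48.5% and 51.4% of all probe sets read above the floor. The poly-A controls, RNAs that this array system uses to follow labelling, had a median log2 ratio of 0.31 between PMA 3 days and undifferentiated cells. It was 0.02 between PMA 8 days and undifferentiated cells, and -0.29 from PMA 3 to PMA 8 days. Scaling to these controls moved the median of all genes from -0.12 to -0.39 at PMA 3 days over undifferentiated, and from 0.04 to 0.31 between the PMA times. Of the genes past 2-fold in PMA 3 days over undifferentiated, 49.1% were higher as deposited, 28.7% with the control scaling and 59.3% with each comparison centred on its median. Between the PMA times the same share was 59.5% as deposited and 92.5% with the control scaling. The myeloid label was checked against markers. Of 6 monocyte and macrophage markers with probe sets, 4 were above the floor in undifferentiated cells and 5 at either PMA time, with SPI1 at or below the floor in undifferentiated cells and FCGR1A on every array. Their summed signal was 70469, 92897 and 68833 on the arrays. LYZ, the brightest of them, read 62439, 36591 and 23242, and CD14 read 849.8, 34195 and 22449. The sum thus did not follow LYZ alone. CD14 was 40.2-fold and CSF1R 5.59-fold higher at PMA 3 days than in undifferentiated cells. The 4 epithelial and 4 endothelial markers were at or below the floor throughout, as were CD3D, CD3E and TRAT1 of the 4 T cell markers (summed signal 219, 237 and 235). Among 3 B cell markers with probe sets CD79A and PAX5 were above the floor on each array and MS4A1 was not (summed signal 1145, 813 and 982). Of 3 erythroid markers with probe sets, HBB was above the floor on each array and ALAS2 on none (summed signal 558, 576 and 639). Of 4 fibroblast markers 2 were above the floor on each array. These were COL1A1 and COL1A2 in undifferentiated cells, and COL1A1 and DCN at either PMA time. The summed signal of the 4, at 772, 2511 and 2161, was carried by COL1A1. Of 2 COL1A1 probe sets above the floor on all arrays, 1 was higher and 1 lower at PMA 3 days than in undifferentiated cells. The part of all these markers' cells in the results below was not tested.

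In PMA 3 days over undifferentiated, SHMT2 and TYMS were lower at 2-fold, none of the 8 members that could be compared was higher, and MTHFD2 alone had a ratio above 0. Across all genes compared, 10.7% were lower at 2-fold (1422 of 13319) and 10.3% were higher (1374), and nothing particular to the members is read from a count of 2 among 8. In PMA 8 days over undifferentiated, 0 members were lower and 0 higher at 2-fold, where 8.39% of 13582 genes were lower and 9.72% higher. In PMA 8 days over PMA 3 days the counts were again 0 and 0, where 0.934% of 13066 genes were lower and 1.37% higher. The members' median log2 ratio was -0.59 at PMA 3 days over undifferentiated, beside -0.12 for all genes. The same medians were -0.15 and -0.07 for PMA 8 days over undifferentiated, and 0.18 and 0.04 between the PMA times. Comparisons over undifferentiated share that array, and the PMA 3 days array enters both the early and the later comparison, so their values are not independent of each other.

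**Figure D1:**
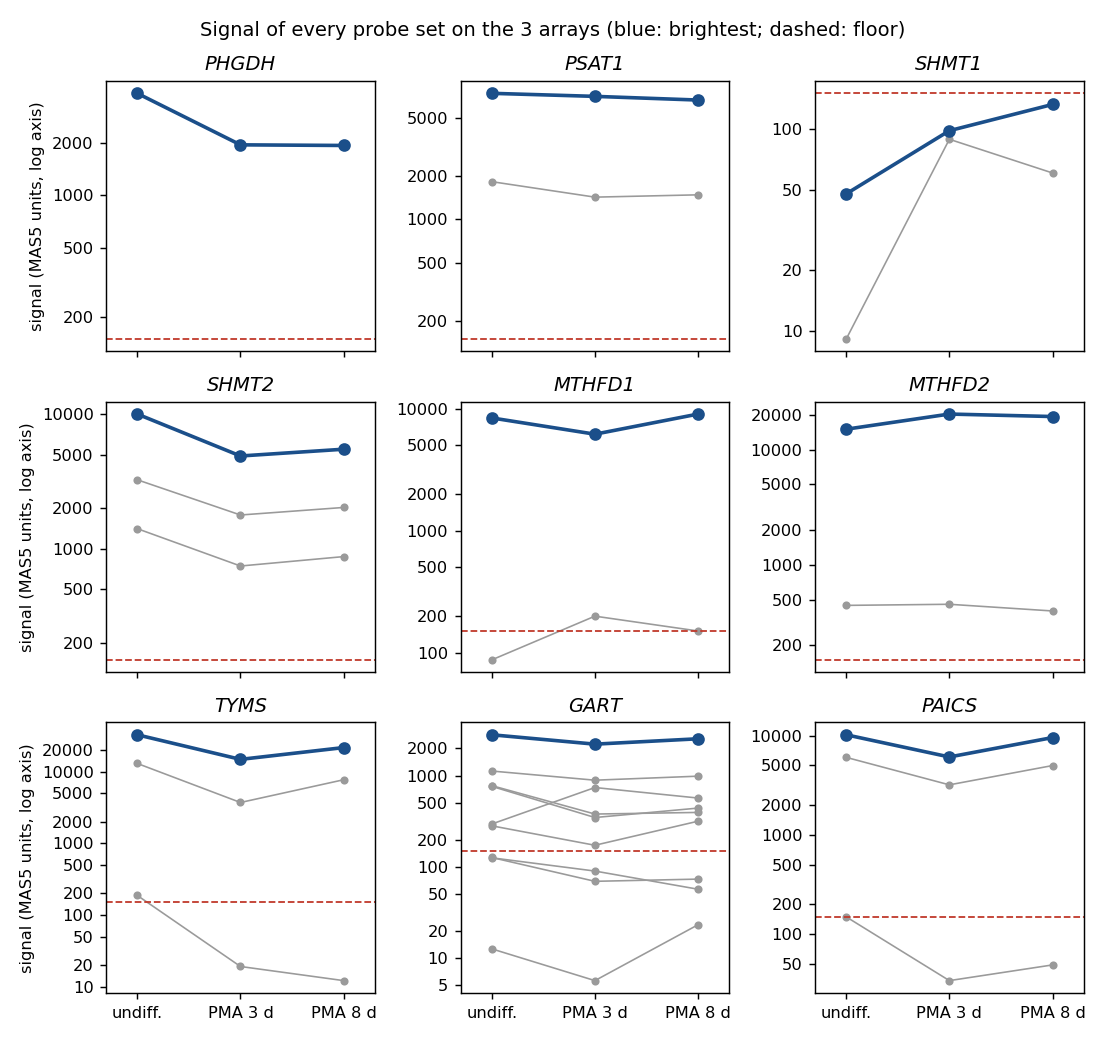
Signal in MAS5 units (log axis) of all 27 probe sets of the 9 genes on the 3 arrays, with 1 array per condition and no error bars. Blue lines are the brightest probe set of a gene, grey lines its other probe sets and the dashed line the floor of 149.8. By the brightest probe set PHGDH, PSAT1, SHMT2, TYMS, GART and PAICS are highest on the undifferentiated array and MTHFD2 is lowest there. The other MTHFD2 probe set is lowest at PMA 8 days, and SHMT1 stays under the floor.

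PHGDH, which commits the glycolytic intermediate to serine, had 1 probe set. It read 3858 on the undifferentiated array, 1953 at PMA 3 days and 1937 at PMA 8 days. The undifferentiated array was the high one and the PMA arrays were alike. PHGDH was thus 1.98-fold lower at PMA 3 days (log2 ratio -0.98) and 1.99-fold lower at PMA 8 days (log2 ratio -0.99), just short of 2-fold both times. These ratios were 2.3 and 2.2 times the probe-set SD, and 11.1% of all genes had a lower ratio at PMA 3 days and 8.49% at PMA 8 days. Between the PMA times its log2 ratio was -0.01, which turned to 0.28 when arrays were scaled to the poly-A controls. Of the members, PHGDH had the lowest ratio at PMA 8 days over undifferentiated.

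PSAT1, the aminotransferase that follows PHGDH, stayed near its undifferentiated signal. Its brighter probe set read 7359, 7013 and 6615. Its other probe set read 1816, 1421 and 1474. The spread over the arrays was small for both. The brighter probe set gave log2 ratios of -0.07 and -0.15 over undifferentiated, and the other gave -0.35 and -0.30, each within the probe-set SD. At PMA 3 days the ratio of the brighter probe set was 0.05 once centred on the median of all genes, so its sign depends on the scaling. Of all genes compared at that time 53.2% had a lower ratio than PSAT1.

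The promoter windows of PHGDH and of the folate genes MTHFD1 and MTHFD2 are shown because members with different ratios carry the same short motif there. They are the 250 bases before the start in RefSeq on GRCh38.p14, read 5′ to 3′ on the gene's strand, and windows were found for 8 of the 9 members (12 windows, since GART and PAICS have several starts). SHMT2 had none in the table. Capitals mark exact matches, on either strand, to CCAAT, the box bound by NF-Y, or to CACGTG, the E-box bound by MYC and its partners. The window of PHGDH lies at chr1:119711684-119711933 (plus strand), that of MTHFD1 at chr14:64388103-64388352 (plus strand), and that of MTHFD2 at chr2:74198365-74198614 (plus strand).
PHGDH: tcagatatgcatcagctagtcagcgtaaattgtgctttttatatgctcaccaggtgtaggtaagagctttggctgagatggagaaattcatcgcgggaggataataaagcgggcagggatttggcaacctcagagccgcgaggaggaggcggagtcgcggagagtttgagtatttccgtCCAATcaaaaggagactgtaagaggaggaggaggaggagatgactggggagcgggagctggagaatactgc
MTHFD1: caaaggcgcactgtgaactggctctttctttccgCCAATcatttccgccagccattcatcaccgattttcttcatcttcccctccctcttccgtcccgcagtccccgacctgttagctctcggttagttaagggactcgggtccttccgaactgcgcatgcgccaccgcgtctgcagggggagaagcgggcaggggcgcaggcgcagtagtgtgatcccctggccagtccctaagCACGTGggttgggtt
MTHFD2: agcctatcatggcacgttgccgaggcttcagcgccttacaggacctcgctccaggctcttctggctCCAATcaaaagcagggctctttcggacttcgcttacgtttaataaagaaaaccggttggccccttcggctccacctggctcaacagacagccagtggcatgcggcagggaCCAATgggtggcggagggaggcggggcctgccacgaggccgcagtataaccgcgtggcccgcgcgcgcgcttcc
PHGDH and MTHFD1 each hold 1 CCAAT match and MTHFD2 holds 2, and the E-box near the end of the MTHFD1 window was the only CACGTG among the members. CCAAT was found in 6 members, namely PHGDH, PSAT1, SHMT1, MTHFD1, MTHFD2 and GART, of the 8 with a window. Among 27305 genes with windows of the same length 37% have it in at least 1 window, and 32% of the 35116 windows hold it. The windows of the first pair of GART starts overlap almost wholly and hold the same matches. CACGTG is in 6.34% of all windows. TGATGCAA, a composite element of the kind bound by ATF4 with C/EBP proteins, was in none of the members' windows and is in 0.772% of all. TTTCGCGC or TTTGGCGC, the only forms of the E2F site searched, occurred in GART only, before start 3 of its 3 listed starts. They occur in 0.968% of all windows. No match of a motif overlapped a match of another. Each match describes letters in a window and is not a measured binding site.

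SHMT2, the mitochondrial enzyme that moves a carbon from serine to folate, had 3 probe sets above the floor on every array. The brightest read 9995 on the undifferentiated array, 4882 at PMA 3 days and 5481 at PMA 8 days. The other probe sets read 3251, 1781 and 2026, and 1410, 745 and 875. All were highest on the undifferentiated array and a little higher at PMA 8 days than at PMA 3 days. SHMT2 was 2.05-fold lower at PMA 3 days by its brightest probe set (log2 ratio -1.03) and 1.83-fold and 1.89-fold lower by the others, so its call rests on the choice of probe set. It was 1.82-fold lower at PMA 8 days (log2 ratio -0.87). The log2 ratio between the PMA times was 0.17, within the probe-set SD of 0.265. SHMT2 was not lower at 2-fold with the comparison centred on the median of all genes, where its ratio was -0.91.

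SHMT1, the cytosolic counterpart, gave no ratio. Its probe sets read 47.7, 97.9 and 132, and 9.13, 88.8 and 60.5, all under the floor of 149.8. No direction is read from values below the floor. A further 2 probe sets are listed under SHMT1 together with MIR6778, a microRNA gene that lies within SHMT1 with an overlap of 73 bases, and were left out by the rule on symbols. PHGDH likewise had 1 probe set that is shared with another gene.

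The folate enzymes MTHFD1 and MTHFD2 differed in the sign of their ratio at PMA 3 days. MTHFD1, the cytosolic enzyme that supplies formyl-folate for purines and methylene-folate for thymidylate, read 8386 on the undifferentiated array, 6171 at PMA 3 days and 9021 at PMA 8 days. The PMA 3 days array was the low one. MTHFD1 was 1.36-fold lower at PMA 3 days than in undifferentiated cells (log2 ratio -0.44) and differed by 0.11 at PMA 8 days. It was 1.46-fold higher at PMA 8 days than at PMA 3 days (log2 ratio 0.55), which was 2.1 times the probe-set SD, and 91.6% of all genes had a lower ratio. Its other probe set was near the floor, at 87.6, 199.8 and 151, and went the other way, at least 1.33-fold higher at PMA 3 days than in undifferentiated cells and 1.32-fold lower at PMA 8 days than at PMA 3 days.

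Of the members compared, MTHFD2 was the only one whose lowest signal was on the undifferentiated array. The enzyme oxidises methylene-folate in mitochondria, and it is known as an enzyme of embryonic and tumour tissue. Its brightest probe set read 15021, 20333 and 19348. The PMA arrays were alike. MTHFD2 was 1.35-fold higher at PMA 3 days (log2 ratio 0.44) and 1.29-fold higher at PMA 8 days (log2 ratio 0.37), about the size of the probe-set SD. Its other probe set read 445, 455 and 398, with log2 ratios of 0.03 and -0.16, so the higher signal was seen in 1 of 2 probe sets. The sign over undifferentiated was positive under each scaling tried, and between the PMA times it turned from -0.07 to 0.22 with the poly-A control scaling.

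TYMS, thymidylate synthase, had the lowest ratio of the members at PMA 3 days. Its brightest probe set read 32626 on the undifferentiated array, 14812 at PMA 3 days and 21639 at PMA 8 days. Its next probe set read 12998, 3711 and 7705. In both the undifferentiated array was highest and the PMA 3 days array lowest, with PMA 8 days between. TYMS was 2.20-fold lower at PMA 3 days than in undifferentiated cells by the brightest probe set (log2 ratio -1.14, 2.6 times the probe-set SD) and 3.5-fold lower by the next (log2 ratio -1.81). The same probe sets were 1.51-fold and 1.69-fold lower at PMA 8 days than in undifferentiated cells. From PMA 3 to PMA 8 days they were 1.46-fold and 2.08-fold higher, and the 2-fold mark was passed by the less bright of them alone. The dimmest probe set was above the floor in undifferentiated cells only, at 188 against 19.2 and 12.2, and was at least 1.26-fold lower at either PMA time. Under all settings tried TYMS kept the sign of its ratios, and that at PMA 3 days over undifferentiated ran from -1.81 to -1.02.

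The window before the TYMS start is printed because TYMS had the lowest ratio of the members at PMA 3 days over undifferentiated. None of the motifs searched was in it. For E2F only TTTCGCGC and TTTGGCGC were searched, so another form of the site would not have been counted. The window lies at chr18:657403-657652 (plus strand, GRCh38.p14), and 71.2% of its bases are G or C.
TYMS: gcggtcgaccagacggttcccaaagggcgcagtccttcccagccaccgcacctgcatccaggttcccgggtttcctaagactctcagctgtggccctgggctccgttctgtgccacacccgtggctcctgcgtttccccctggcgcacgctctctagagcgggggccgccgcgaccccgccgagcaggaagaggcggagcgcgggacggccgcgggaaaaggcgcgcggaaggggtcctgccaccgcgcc
Downstream, TYMS overlaps ENOSF1, a gene on the other strand, by 10593 bases. ENOSF1 has no probe set listed under it alone, and whether the TYMS probe sets read the overlap was not tested.

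**Figure D2:**
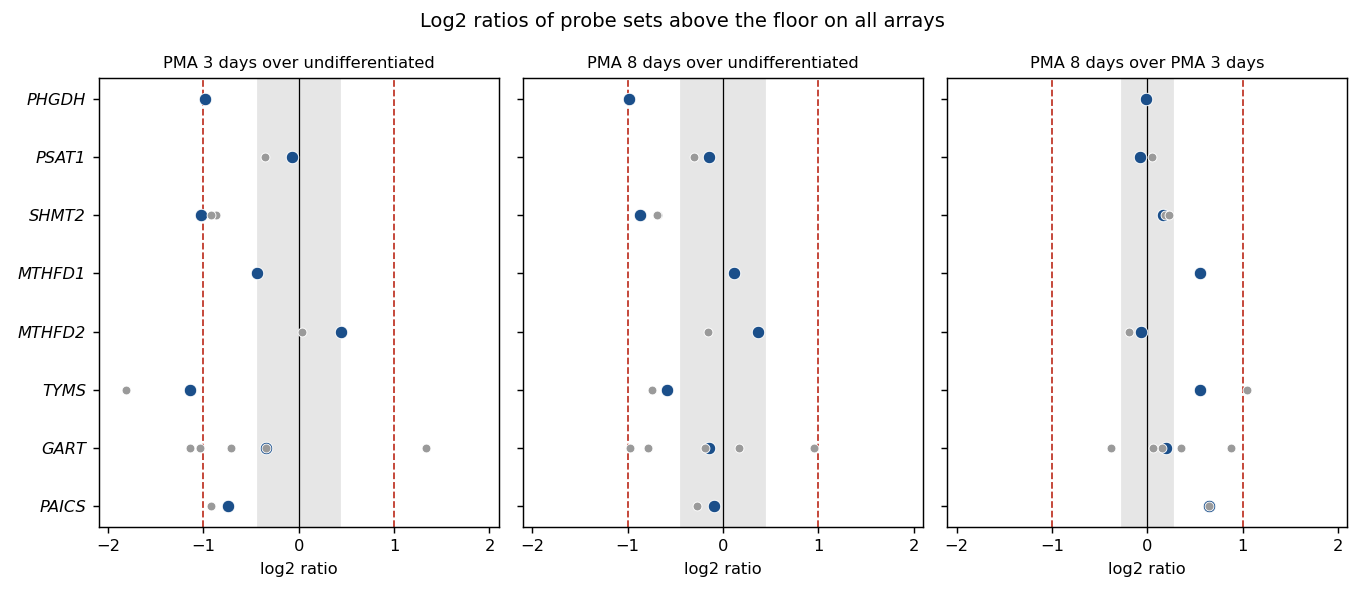
Log2 ratios (horizontal axis) of the 19 probe sets that lie above the floor on all arrays, by gene, for the 3 comparisons. Blue points are the brightest probe set of a gene and grey points the others. The shaded band is 1 probe-set SD either side of 0 and dashed lines mark 2-fold. In PMA 3 days over undifferentiated 16 of the 19 points lie below 0, and in PMA 8 days over PMA 3 days 14 lie above it. The medians of all genes in these comparisons were -0.12 and 0.04. The share of all probe sets on either side of 0 was not counted. The points belong to 8 genes and both comparisons use the PMA 3 days array, so they are not independent.

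GART, which carries several steps of the purine ring's assembly and takes a carbon from formyl-folate, was the member whose probe sets disagreed most. Of 9 probe sets 6 were above the floor on all arrays. The brightest read 2829, 2232 and 2557, and the next 1131, 897 and 993. Both were lowest at PMA 3 days, by 1.27-fold and 1.26-fold below undifferentiated cells, which is within the probe-set SD. A pair of dimmer probe sets, at 768, 349 and 443 and at 782, 381 and 397, were 2.20-fold and 2.05-fold lower at PMA 3 days. A further probe set read 283, 173 and 318, lowest at PMA 3 days as well. Another probe set went the other way, at 296, 745 and 571, and was 2.51-fold higher at PMA 3 days. The log2 ratios of GART at PMA 3 days thus ran from -1.14 to 1.33 among its own probe sets, and the brightest gave -0.34. Which transcript each probe set reads was not examined.

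PAICS, which carries successive later steps of the same pathway, read 10187 on the undifferentiated array, 6086 at PMA 3 days and 9551 at PMA 8 days. The second probe set read 6032, 3187 and 4988. In both the PMA 3 days array was low and the other arrays were close to each other. PAICS was 1.67-fold and 1.89-fold lower at PMA 3 days than in undifferentiated cells (log2 ratios -0.74 and -0.92). From PMA 3 to PMA 8 days it was 1.57-fold higher by either probe set (log2 ratio 0.65), 2.5 times the probe-set SD, and 94.3% of all genes had a lower ratio. Over undifferentiated, the log2 ratios of PMA 8 days were -0.09 and -0.27. The dimmest probe set was under the floor on all arrays.

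Both purine genes start close to a gene on the opposite strand, and the regions between the starts are shown because the neighbours were measured too. From 1 of its 3 listed starts PAICS faces PPAT, the amidotransferase of the purine pathway's committed step, across 136 bases at chr4:56435616-56435751. The spans of PAICS and PPAT overlap by 25109 bases through another PAICS start, and whether their probe sets read the overlap was not tested. GART faces SON, a splicing factor gene, across 145 bases at chr21:33542893-33543037. Both are printed on the plus strand of GRCh38.p14, which is the strand of PAICS and of SON, with CCAAT in capitals in either orientation.
PPAT and PAICS: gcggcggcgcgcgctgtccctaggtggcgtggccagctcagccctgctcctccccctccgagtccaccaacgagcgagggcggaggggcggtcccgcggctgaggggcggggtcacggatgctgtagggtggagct
GART and SON: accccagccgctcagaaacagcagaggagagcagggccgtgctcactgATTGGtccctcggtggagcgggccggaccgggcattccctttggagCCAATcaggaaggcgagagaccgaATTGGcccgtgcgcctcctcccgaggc
The region of GART and SON holds 3 CCAAT matches, and that of PPAT and PAICS holds none of the motifs searched. PPAT read 2267 in undifferentiated cells, 1809 at PMA 3 days and 2168 at PMA 8 days, with log2 ratios over undifferentiated of -0.33 and -0.06 beside -0.74 and -0.09 for PAICS. SON read 19157, 19853 and 19019.6, with log2 ratios of 0.05 and -0.01 beside -0.34 and -0.15 for GART. Between the PMA times the log2 ratio was 0.26 for PPAT beside 0.65 for PAICS, and -0.06 for SON beside 0.20 for GART. By its second probe set PAICS lay lower, at -0.92 and -0.27 over undifferentiated. The neighbours' probe sets above the floor on all arrays differed in sign at PMA 3 days over undifferentiated. Of 3 for PPAT 2 were below 0 and 1 above, and of 5 for SON 3 were below and 2 above.

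Ordered by ratio at PMA 3 days over undifferentiated, the members ran from TYMS (-1.14) through SHMT2 (-1.03), PHGDH (-0.98), PAICS (-0.74), MTHFD1 (-0.44), GART (-0.34) and PSAT1 (-0.07) to MTHFD2 (0.44). Neighbours in this order lay closer than the probe-set SD of 0.43, except PSAT1 and MTHFD2. At PMA 8 days over undifferentiated PHGDH (-0.99) and SHMT2 (-0.87) stood lowest, followed by TYMS (-0.59). PAICS, GART, PSAT1, MTHFD1 and MTHFD2 (0.37) lay within the probe-set SD of 0. Between the PMA times, PAICS (0.65), MTHFD1 (0.55) and TYMS (0.55) had ratios above 2 probe-set SDs, SHMT2 (0.17) and GART (0.20) had ratios within 1, and PHGDH, PSAT1 and MTHFD2 were within 0.08 of 0. A low value on the PMA 3 days array would enter the ratio over undifferentiated and the ratio between the PMA times with opposite sign, and with 1 array this could not be tested.

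Over undifferentiated at PMA 3 days, 5 of the 19 probe sets above the floor on all arrays were lower at 2-fold and 1 was higher. Of 19896 probe sets under the same filter 10.3% were lower and 9.42% higher, and the 19 share 8 genes, so they are not independent. The lower ones belong to SHMT2 (1), TYMS (2) and GART (2), and the higher one to GART. At PMA 8 days over undifferentiated 15 of the 19 had ratios below 0, where the median of all genes was -0.07. The share of all such probe sets below 0 was not counted, so nothing is read from the 15. None of the 19 passed 2-fold in either direction, where 8.68% of all such probe sets were lower and 8.77% higher. Between the PMA times 0 were lower and 1, of TYMS, was higher, where 0.779% and 0.94% of all such probe sets were. Of the 27 probe sets, 21 were above the floor on at least 1 array and 6 on none.

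The other genes of serine and glycine metabolism were read from a list of 5 without the members. Of these 1 was lower at 2-fold and 0 higher at PMA 3 days over undifferentiated, where 10.7% and 10.3% of all genes were. The median log2 ratio of the 5 was -0.96. The count of lower genes was 3 with the poly-A control scaling and 0 with a floor at the 60th percentile. The lower one was GLDC, the decarboxylase of the glycine cleavage system, at 461, 195 and 222, and it was 2.36-fold lower at PMA 3 days and 2.07-fold lower at PMA 8 days. GCSH and AMT, partners of GLDC in that system, had log2 ratios of -0.98 and -0.96 at PMA 3 days, close to that of PHGDH. DLD, a subunit shared with other dehydrogenase complexes, had 0.03. PSPH, the phosphatase that ends serine synthesis, read 3808, 3677 and 2489 by its brightest probe set, 1.53-fold lower at PMA 8 days, and 1626, 1665 and 1629.6 by the other one above the floor, which does not show that difference.

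In the rest of the folate list, 13 genes could be compared at PMA 3 days over undifferentiated, and 3 were lower and 1 higher at 2-fold. Over all genes 10.7% were lower and 10.3% higher. The median of the 13 was 0.19, which turned to -0.11 with the poly-A control scaling. SLC19A1, the reduced folate carrier, read 1692, 425 and 583 and was 3.98-fold lower at PMA 3 days and 2.90-fold lower at PMA 8 days. SLC46A1, the proton-coupled folate transporter, read 983, 3819.7 and 2668 and was 3.89-fold and 2.72-fold higher. The carriers' ratios thus had opposite signs, and both lay further from 0 than any member. FOLR2, a folate receptor of macrophages, read 429 in undifferentiated cells and was under the floor at both PMA times, at least 2.86-fold lower. ALDH1L1, which burns formyl-folate, was at least 2.83-fold lower at PMA 3 days, and at PMA 8 days it read 317 against 425 in undifferentiated cells. GGH, the hydrolase that trims polyglutamated folate, had log2 ratios of 0.65 and 0.62.

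At PMA 3 days over undifferentiated, 5 of 10 other purine synthesis genes were lower at 2-fold and 0 higher. Among all genes 10.7% were lower. The list had a median of -0.81 beside -0.12 for all genes. With the second-brightest probe set 2 of 6 were lower and the median was -0.3. By PMA 8 days 3 of the 10 were lower and 0 higher by the brightest probe set, where 8.39% of all genes were lower. The median was then -0.42. IMPDH2, the rate-limiting enzyme of guanine nucleotide synthesis, read 23991, 9892 and 10639 and was 2.43-fold and 2.25-fold lower. PFAS was 2.38-fold and 2.09-fold lower, and ADSS1 3.99-fold and 4.89-fold lower. ADSL and GMPS were 2.25-fold and 2.01-fold lower at PMA 3 days and 1.96-fold and 1.36-fold lower at PMA 8 days. ATIC, the enzyme that closes the purine ring, had log2 ratios of -0.62 and -0.28. GART and PAICS, at -0.34 and -0.74 at PMA 3 days, had ratios nearer to 0 than those 5 genes. PRPS1 alone of the list had a ratio above 0 at PMA 3 days, with 4696, 6251 and 8171.

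In the supply of deoxynucleotides, 1 of 12 genes other than TYMS was lower at 2-fold at PMA 3 days and 0 higher, with a median of -0.57. Of all genes 10.7% were lower and 10.3% higher, so nothing is read from that count. The lower gene was TK1, the thymidine kinase of dividing cells, at 7192, 3311 and 4207. RRM1 and RRM2, the subunits of ribonucleotide reductase, had log2 ratios of -0.79 and -0.86 at PMA 3 days and -0.31 and -0.33 at PMA 8 days. Of 2 RRM2 probe sets above the floor on all arrays, 1 was below 0 and 1 above at PMA 8 days over undifferentiated. DUT, which makes the dUMP that TYMS uses, had -0.81 and -0.57. RRM2B, the reductase subunit of resting cells, had 0.50 and 0.40. TYMS at -1.14 was near TK1 at -1.12. None of the 12 genes (0) at PMA 8 days was past 2-fold, and under the poly-A control scaling 6 of the 12 were lower at PMA 3 days.

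Of 6 pyrimidine synthesis genes 0 were past 2-fold at PMA 3 days over undifferentiated (median -0.55), and 1 was lower at PMA 8 days, DHODH, the mitochondrial dehydrogenase of the pathway, at 631, 341 and 296. Over all genes 8.39% were lower at PMA 8 days. Of 12 salvage genes compared at PMA 3 days 1 was lower and 2 higher, where 10.7% and 10.3% of all genes were. APRT was the lower one, at 7981, 3858 and 4248. UPP1, uridine phosphorylase, read 228, 741 and 1103, and NT5E, the surface nucleotidase CD73, read 199, 4668 and 8062. The salvage median was -0.02, and 0.10 once centred on all genes. In the methionine cycle, which takes its methyl group from folate, 0 of 7 genes were past 2-fold at PMA 3 days, with a median of -0.46. CTH alone was higher at PMA 8 days, at 196, 305 and 411, where 9.72% of all genes were higher.

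**Figure D3:**
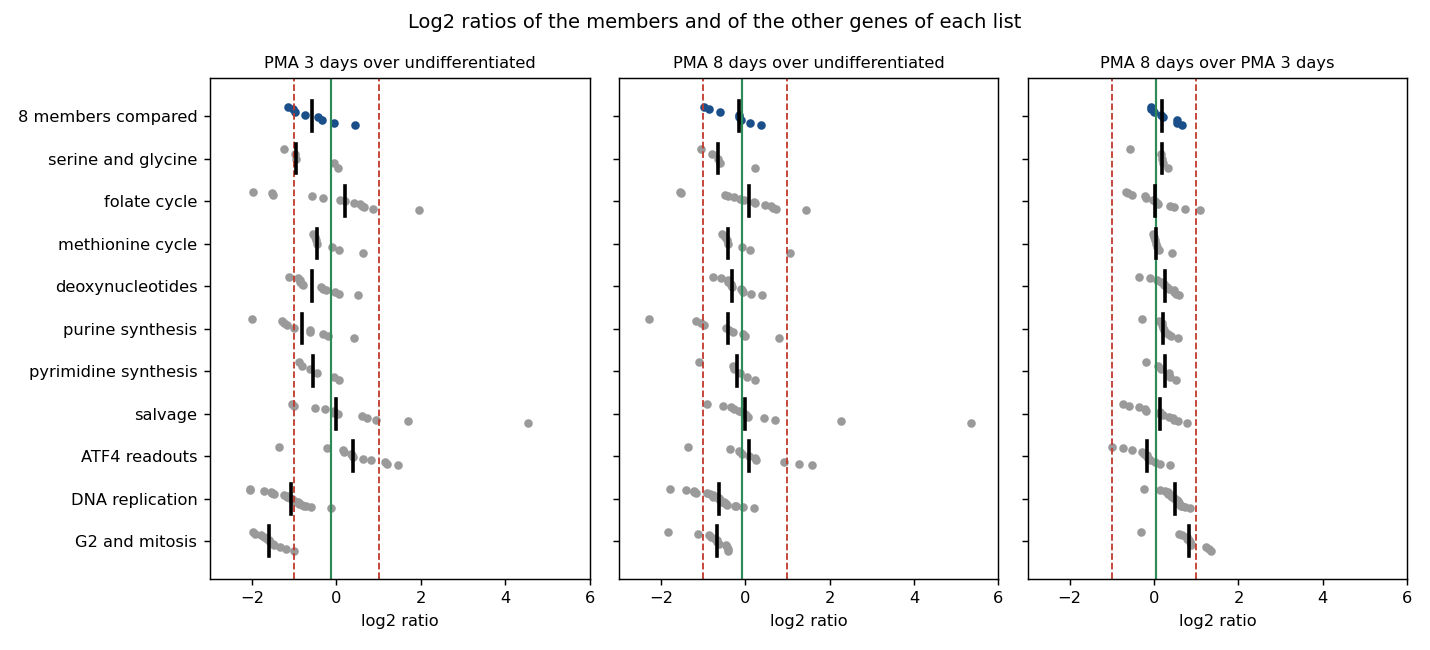
Log2 ratios (horizontal axis) of the 8 members compared (blue) and of the other genes of each list (grey), 1 point per gene, for the 3 comparisons. Black bars are list medians, the green line is the median of all genes and dashed lines mark 2-fold; at PMA 3 days over undifferentiated the purine list has a median of -0.81, the members -0.59 and the lists of DNA replication and of G2 and mitosis -1.07 and -1.59.

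Genes of DNA replication and of the G2 and mitotic phases lay lower beside the members, with medians further from 0. Of 24 replication genes 15 were lower at 2-fold and 0 higher at PMA 3 days over undifferentiated, with a median of -1.07. Of 12 G2 and mitosis genes 11 were lower and 0 higher, with a median of -1.59. Over all genes 10.7% were lower and 10.3% higher. The medians of these lists at PMA 8 days over undifferentiated were -0.63 and -0.66, and in PMA 8 days over PMA 3 days 0.49 and 0.84. MKI67, the proliferation marker, read 4819, 1581 and 2739, with the same order of arrays as TYMS. CCNB1, CDK1 and BUB1 were higher at 2-fold from PMA 3 to PMA 8 days, as 3 of the 12 genes of their list. Of the 8 members compared 0 were higher by the brightest probe set. Among all genes 1.37% were higher, so nothing is read from that count of 0. The part of cycling cells in the members' ratios was not tested.

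Among 6 compared genes for factors that bind promoters of these pathways, 1 was lower at 2-fold at PMA 3 days and 0 higher. Of all genes 10.7% were lower and 10.3% higher. MYC, which is known to drive serine, folate and nucleotide genes, read 9225, 1767 and 2453 and was 5.22-fold lower at PMA 3 days and 3.76-fold lower at PMA 8 days. ATF4, the amino-acid response factor known to bind PHGDH, PSAT1, SHMT2 and MTHFD2, read 17736, 19938 and 18356 and had log2 ratios of 0.17 and 0.05. Of 12 further genes known to respond to ATF4, 3 were higher and 1 lower at 2-fold at PMA 3 days, with a median of 0.38. With the poly-A control scaling 1 was higher. The share of all genes that was higher was 10.3% as deposited and 7.41% with that scaling. SLC7A11 and SLC3A2, the subunits of the cystine transporter, read 1591, 3646 and 4741, and 1237, 2717 and 2319.8. CEBPB read 5963, 16382 and 14436, and the lower gene, VLDLR, read 6211, 2425 and 2434. ASNS, asparagine synthetase, had log2 ratios of 0.35 and 0.25, close to those of MTHFD2. PHGDH and SHMT2 at -0.98 and -1.03 lay on the other side of 0 from ASNS.

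Outside the members, the genes whose pair of ratios over undifferentiated lay nearest to the members' medians of -0.59 and -0.15 were PARD6B, MGST3 and UBE3D. Their log2 ratios were -0.59 and -0.13, -0.60 and -0.17, and -0.61 and -0.15, at Euclidean distances of 0.016, 0.02 and 0.022. Likeness was measured over 2 ratios among 11116 genes above the floor on all arrays, and 436 genes (3.92%) lay within a distance of 0.2. The members' median pattern was therefore shared by many genes on these arrays.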

How the data were processed

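RNA of 3 THP-1 cultures was measured on 1 oligonucleotide array each. The intensity values as deposited by the authors were made with MAS5, per the submitters' processing notes; the sources used here give no version. The array has 54675 probe sets. Leaving out 62 controls, the platform table names a single gene for 41091 of 54613, several genes for 1801 and no gene for 11721. Symbols were checked by Entrez ID against RefSeq (GRCh38.p14), which matched 41037 and changed 0. A gene was represented by the probe set with the highest mean log2 signal after values were raised to the floor. A comparison took a gene when either array of the pair exceeded the floor, and the call threshold was 2-fold. No test was run, since arrays were not replicated.

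The members and the pathway lists were chosen with earlier results of these data known, and the lists come from general knowledge. Named genes are all members, genes of these lists with the count of their list, and the 3 genes nearest to the members' median pattern. Other floors, normalizations, scalings, centrings, probe-set choices and folds were tried. The steps were tested on simulated data. Computation was in Python 3.11.15 with matplotlib 3.10.9, scipy 1.17.1, pandas 2.3.3 and numpy 2.4.6.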

Additional observations from a re-analysis of the deposited data

How the results depend on the processing

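No paired analysis was possible because each condition had 1 array. Of the members' counts and medians, 70 values under the alternatives stayed close to the reported ones and 14 moved. The 70 include counts of 0 that stayed at 0. No median changed sign, and a count cannot. In PMA 3 days over undifferentiated, the count of members lower at 2-fold, 2 as reported, was 4 with scaling to the poly-A controls (PHGDH, SHMT2, TYMS and PAICS), and 4, the same genes, at 1.5-fold. The share of all genes called lower was larger there too, at 18.4% and 23.8% against 10.7%, and was 8.39% when centred. The count was 1, TYMS, with each comparison centred on its median, with the second-brightest probe set, with the mean of all probe sets and with probe sets of the plain suffix alone, and 0 at 3-fold. In PMA 8 days over undifferentiated, 1 member (PHGDH) was lower with the poly-A scaling and 3 (PHGDH, SHMT2 and TYMS) at 1.5-fold, where 0 were reported and where 8.64% and 20.0% of all genes were lower. Without a floor SHMT1 was counted, and 1 member was higher in either comparison with undifferentiated cells, on signals too dim to compare. In PMA 8 days over PMA 3 days, the members' median was 0.48 with the poly-A scaling, and 1 member was higher with the second-brightest probe set (TYMS) or at 1.5-fold (PAICS), where 0 were reported and 1.40% and 7.18% of all genes were higher. Of the members' 24 ratios 7 changed sign in some setting: by the second-brightest probe set MTHFD1 was at least 0.42 at PMA 3 days over undifferentiated and -0.4 between the PMA times, MTHFD2 was -0.16 at PMA 8 days over undifferentiated and PSAT1 was 0.05 between the PMA times. Centring took PSAT1 to 0.05 at PMA 3 days over undifferentiated, and the poly-A scaling took PHGDH, PSAT1 and MTHFD2 to 0.28, 0.21 and 0.22 between the PMA times. The causes were not tested. Signals near background limit SHMT1 and the dimmer probe sets of MTHFD1, TYMS and GART, and the lack of replicate arrays limits every ratio.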
